A study of Mus musculus with 24 samples.

Results

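The sites described here are the protein-protected sites (PPSs) of MEL cells that were called with a single-strand specific RNase (ssRNase) at day 2 and at day 4 of DMSO treatment, so that the comparison covers the late step of induced erythroid differentiation. They were chosen by the names of the calls merged into each deposited PPS: a PPS entered when at least 1 of its calls came from an ssRNase library of replicate 1 or replicate 2, and PPSs of 20 to 40 nt were left out because sites of that size can come from ribosomes. This gave 172371 PPSs, 99244 at day 2 and 73127 at day 4, of 460777 deposited for the whole series and 322088 deposited for these days. MEL cells are a murine erythroleukemia line held at a proerythroblast-like stage, and both days were treated alike: cells in log-phase suspension culture received 2% DMSO, were collected after 2 or 4 days and were crosslinked with 1% formaldehyde. At each day there were 2 biological replicates, and each replicate gave 1 ssRNase library digested while proteins were still on the RNA (footprinting) and 1 digested after their removal (structure only). Untreated cells of day 0 were not used in this comparison. The line is leukemic, its cells do not pass through the bone marrow, and every library stands for a whole culture.

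In protein interaction profile sequencing (PIP-seq), an RNase removes RNA that no protein covers, and a stretch with more reads in footprinting than in structure-only libraries is called a PPS. An ssRNase spares paired RNA in both kinds of library, so the called difference lies in single-stranded RNA that proteins shield. Late erythroid cells make hemoglobin and a spectrin-based membrane skeleton, leave the cell cycle and condense the nucleus, and much of their gene control then acts on existing RNA, through splicing, decay and translation. The question put to the data was which sites, transcript classes and genes differed between day 4 and day 2.

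Sequences of 8 sites are shown first because they show the kind of site that was gained or lost across exon–intron borders. Each lies at a 5′ splice site inside a PPS that had calls of both replicates at one day and overlapped no PPS of either nuclease at the other day. They come from the highest-scoring such sites, 4 on each side, and were chosen after values were seen. Letters are the mm10 (GRCm38) sense strand, 30 nt each, with the exon in capitals and the intron in lower case. The last intron letters printed for Piezo1 and Kdm3a lie outside their PPSs.
Add1, chr5:34604838-34604867, plus strand: CCGCCCTGAACATGAgtgagtagttcttgg
Piezo1, chr8:122486292-122486321, minus strand: GAACAGCAGTCATGGgtgagagcccagact
Epor, chr9:21963302-21963331, minus strand: AGTTTGAGAGCAAAGgtaagaactgtacat
Kdm3a, chr6:71591840-71591869, minus strand: GAATTCCTTAAAAAGgtgagttgctaatct
Kif11, chr19:37411596-37411625, plus strand: GAGAATTTAATGGAGgtaatatgtctgcac
Anln, chr9:22338987-22339016, minus strand: GAAAAGGGTTTCCTTgtgagtgccggctcc
Tacc3, chr5:33671771-33671800, plus strand: ACTCTGGAGCAGAAGgtaggacacagagac
Polr2g, chr19:8794121-8794150, minus strand: GACAAGAATGACATTgtgagtctcttgctt
The first 4 were found at day 4 only: Add1 encodes an adducin of the red cell membrane skeleton, Piezo1 a mechanically gated ion channel, Epor the erythropoietin receptor and Kdm3a a histone demethylase. The last 4 were found at day 2 only: Kif11 encodes a kinesin of the mitotic spindle, Anln the cytokinesis protein anillin, Tacc3 a spindle protein and Polr2g a subunit of RNA polymerase II. The PPS over the Add1 border spanned 232 nt with a score of 69.5, and that over the Kif11 border spanned 107 nt with a score of 55.0.

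Within coding sequence, gained and lost sites are illustrated by 4 stretches of 30 nt taken by the same rule from PPSs lying wholly in the CDS, with the word counted further on in capitals. Gained sites are shown for GAAGAA and AAAAAA, and lost sites for CCTCCC.
Hmgb3, chrX:71558525-71558554, plus strand: taaaggaggcaaGAAGAAgaaggacccaaa
Parg, chr14:32209222-32209251, plus strand: tggaactggaccAAAAAAtgacaacaaatt
Trib3, chr2:152343154-152343183, minus strand: ccccccagcccaCCTCCCgcctcagacttg
Tnrc6c, chr11:117733700-117733729, plus strand: ggaacaacgctgCCTCCCaagaaagcagct
Hmgb3 encodes a chromatin protein of hematopoietic progenitors, Parg the enzyme that removes poly(ADP-ribose), Trib3 a stress-induced pseudokinase and Tnrc6c a protein of microRNA-guided silencing.

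Before the comparisons, the replicates were set side by side. Replicates 1 and 2 gave 51965 and 73952 PPSs at day 2 and 47625 and 48112 at day 4. Day 4 replicate 2 stood apart by strand, with 43.1% of its PPSs on the plus strand against 51.0% in day 4 replicate 1 and 51.1% and 50.3% at day 2, so values that rest on it were also taken on each strand alone. Read depth per library is unknown from lists of sites. A PPS takes its coordinates from all calls merged into it, dsRNase calls included, and 20.3% of the day 2 PPSs but 40.5% of the day 4 PPSs held a dsRNase call. Of 12 erythroid markers, 11 had exonic PPSs, among them Hba-a1 at 52.5% and 47.9% at day 2 and 74.4% and 26.1% at day 4 of its exonic nucleotides. Of 11 markers of other blood cells, 9 had none, including Mpo, Lyz2 and Ptprc; Cebpa had one at day 2, and Itga2b, an integrin of megakaryocytes and progenitors, had 23.5% and 29.3% at day 2 and 35.5% and 32.0% at day 4. With 2 replicates a day, an exact permutation test cannot go below a two-sided p of 0.333, so no p is given, and a difference is described by its 4 replicate values and by its range when each day 4 replicate is set against each day 2 replicate (4 pairs). Replicates share merged coordinates, which makes them look closer than they are. Wilson and Newcombe 95% intervals are for pooled PPSs and cover counting error only.

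The day 4 sites were fewer, longer and more often merged from several calls, with dsRNase calls counted. Pooled over replicates, day 4 had 0.737 times as many PPSs as day 2, and 0.644 to 0.926 times over the 4 pairs. The nucleotides they covered came to 6784 kb at day 2 and 5789 kb at day 4, and the ratio of 0.853 ran from 0.745 to 1.09 over pairs, so that its direction depended on the replicate. In whole cultures, fewer cells with an RNA, less RNA per cell and less protein on it cannot be told apart from these lists. Without day 2 replicate 2 the ratio of PPS numbers was 1.41, since 2 replicates of day 4 then stood against 1 of day 2. Median lengths were 61 and 64 nt at day 2 and 71 and 72 nt at day 4, without overlap. Sites of 200 nt or more made up 0.733% of PPSs at day 2 and 1.86% at day 4. PPSs formed from a single call of either nuclease fell from 60.1% to 42.9%, while PPSs with a dsRNase call rose from 20.3% to 40.5%. The single-call share is therefore no measure of ssRNase support alone. PPSs with ssRNase calls of both replicates were 26.9% and 30.9%. Ribosome-sized PPSs, left out elsewhere, made up 29.4% and 17.5% of the ssRNase PPSs of all lengths at day 2 and 10.7% and 8.43% at day 4.

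The shares of PPSs that touched coding sequence and 3′ UTRs were larger at day 4, and the share that touched introns was smaller. A PPS was counted in every class that it touched by 1 nt, following GENCODE M21. The CDS held 29.0% and 27.3% of PPSs at day 2 and 36.0% and 32.5% at day 4; the pooled shares were 27.8% (Wilson 95% interval 27.5 to 28.1) and 33.6% (33.3 to 34.0). The rise of 5.86 percentage points (Newcombe 95% interval 5.42 to 6.30) had a range of 3.49 to 8.77 points when replicates were paired in all 4 ways. The 3′ UTR, which carries many signals for decay and localization, held 13.4% and 13.5% of PPSs at day 2 and 15.5% and 16.1% at day 4, a rise of 2.37 points that ran from 2.00 to 2.69. Day 4 PPSs were longer, and the 3′ UTR rise was 0.959 points when each PPS was placed by its midpoint. PPSs wholly in a 3′ UTR made up 7.57% and 7.99% of PPSs at day 2 and 7.83% and 9.08% at day 4, with overlapping replicates. Introns held 65.6% and 67.7% of PPSs at day 2 and 63.4% and 63.9% at day 4, and the share fell by 3.26 points, with a range from -4.22 to -1.65. Replicates of the days did not overlap for the CDS, the 3′ UTR and introns counted by touch. The 5′ UTR gave overlapping replicates, at 5.35% and 4.45% of PPSs at day 2 and 4.598% and 4.02% at day 4.

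PPSs lying in introns alone numbered 48461 at day 2 and 31511 at day 4, and PPSs touching an exon and an intron 17490 and 14701. The former made up 47.0% and 49.3% of PPSs at day 2 and 41.1% and 43.8% at day 4, and the pooled share fell by 5.74 points. The share of PPSs that touched an exon and an intron rose, from 17.6% to 20.1% of pooled PPSs, with a range over pairs from 1.58 to 3.94 points. Exons of lncRNA genes, genes of small RNAs and pseudogene exons held 1.67%, 0.375% and 0.253% of day 4 PPSs, and none of these 3 classes separated the days. On the plus strand alone and on the minus strand alone, the changes in CDS, 3′ UTR and intron kept their direction.

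**Figure D1:**
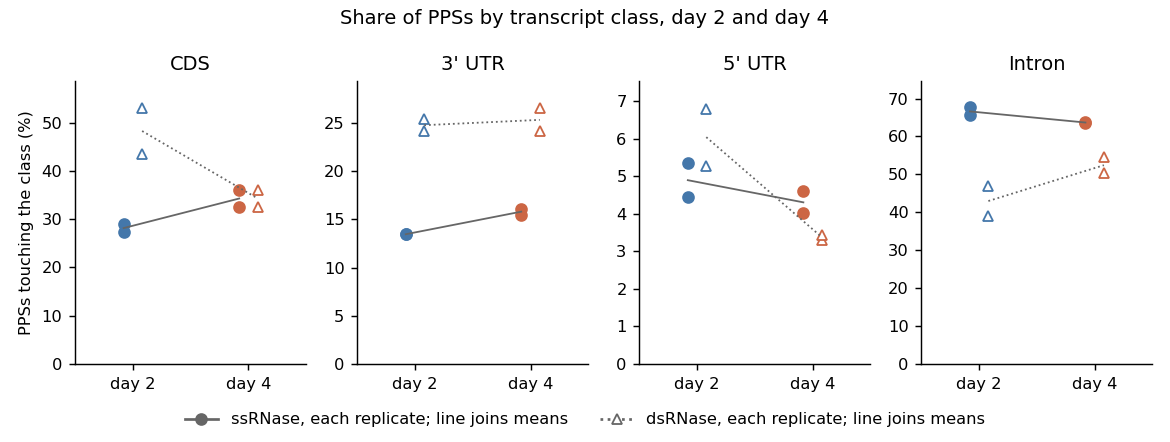
Share of PPSs (%) that touched the CDS, 3′ UTR, 5′ UTR or introns at day 2 (blue) and day 4 (orange); filled circles are ssRNase replicates, open triangles dsRNase replicates, and lines join the means of 2 replicates. The ssRNase CDS share rose from 29.0% and 27.3% to 36.0% and 32.5%, while the dsRNase CDS share fell from 43.5% and 53.0% to 32.5% and 36.0%.

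The dsRNase PPSs of the same cultures, shown in the plot of class shares, moved the other way in the CDS and in introns. The dsRNase CDS share was 43.5% and 53.0% of PPSs at day 2 and 32.5% and 36.0% at day 4, and the dsRNase intron share was 47.0% and 39.0% of PPSs at day 2 and 54.5% and 50.3% at day 4. At day 4 the CDS shares of the nucleases thus lay in one range, whereas at day 2 they were far apart. The sets share sites, since a PPS with calls of both nucleases counts in each. Such PPSs made up 20.3% of the ssRNase PPSs at day 2 and 40.5% at day 4. The 5′ UTR share fell with dsRNase, from 5.28% and 6.81% to 3.31% and 3.45%, without overlap of replicates.

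Around start codons, day 4 had less protection upstream and just downstream of the AUG. In the 100 nt before the start codon, where the scanning ribosome subunit arrives, the share of positions inside a PPS was 8.24% and 9.45% at day 2 and 6.47% and 5.79% at day 4, over 5958 genes. Pooled over replicates it fell by 3.74 points, from 12.4% to 8.69%. Without day 2 replicate 2 the pooled change was 0.482 points, as both day 4 replicates were then set against 1 of day 2. The windows from 400 to 100 nt upstream gave the same order, with all day 4 replicates below all day 2 replicates. In the first 100 nt of the CDS the shares were 8.95% and 10.9% at day 2 and 8.24% and 7.47% at day 4. Beyond 100 nt into the CDS, and in every window from 400 nt before to 500 nt after the stop codon, replicates of the days overlapped. At 100 to 200 nt after the stop codon, for example, the shares were 2.50% and 3.92% at day 2 and 3.36% and 3.70% at day 4. The drop at the stop codon was present on both days: from the last 100 nt of the CDS to the first 100 nt after the stop codon, density went from 9.17% to 6.35% at day 2 and from 8.84% to 6.27% at day 4.

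**Figure D2:**
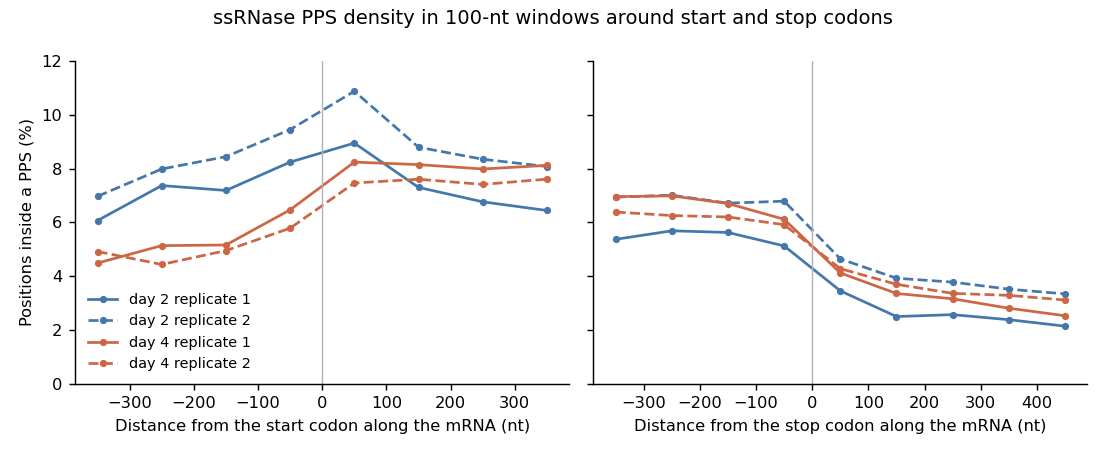
Positions inside an ssRNase PPS (%) in windows of 100 nt around the start codon (left) and the stop codon (right), by distance along the mRNA of 1 transcript per gene; blue lines are day 2 and orange lines day 4, solid for replicate 1 and dashed for replicate 2. Upstream of the start codon both orange lines lie below both blue lines, at 6.47% and 5.79% against 8.24% and 9.45% in the window just before it, and around the stop codon the lines interleave.

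Sites crossing exon–intron borders, of which 8 were printed above, took a larger share at day 4. Of PPSs that touched an intron, those crossing a 5′ splice site, where U1 snRNP first binds a pre-mRNA, made up 9.71% and 9.36% at day 2 and 15.2% and 12.3% at day 4. The pooled shares were 8.53% and 12.4%, and the rise of 3.85 points ran from 2.57 to 5.85 over pairs. Those crossing a 3′ splice site, where U2AF binds, were fewer, at 3.04% and 3.04% at day 2 and 4.66% and 4.14% at day 4. Longer sites cross more borders, and among PPSs of 60 to 80 nt the 5′ splice site shares were 10.6% and 9.41% at day 2 and 14.7% and 10.8% at day 4, with a smallest difference over pairs of 0.228 points. Without day 4 replicate 2 the pooled rise over all lengths was 6.68 points. The number of different 5′ splice sites crossed was nearly level, at 5764 at day 2 and 5862 at day 4 of 218474 annotated, so the larger share went with fewer intronic PPSs overall. By replicate it was 3402 and 4803 at day 2 and 4717 and 3883 at day 4, which overlap.

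To follow single sites, PPSs were matched by overlap of 1 nt or more on the same strand. Of day 2 PPSs, 38.9% overlapped a day 4 ssRNase PPS, and 51.1% of day 4 PPSs overlapped one of day 2. Over pairs of replicates the shares were 30.04% to 35.0% and 36.2% to 45.1%. Within day 2, 51.3% and 36.1% of the PPSs of replicates 1 and 2 held calls of both replicates. At day 4 these shares were 47.5% and 47.0%. Calls were merged within a day and not between days, so these shares are no benchmark for the overlap of days. Sites in genes of small RNAs were kept most often, with 88.0% of day 4 PPSs there overlapping day 2, against 63.0% in the 5′ UTR, 53.0% in introns alone, 48.6% in the CDS and 44.0% in the 3′ UTR. Seen from day 2, 44.0% of CDS sites and 35.7% of sites in introns alone overlapped day 4.

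Sites with calls of both replicates were sorted into lost, gained and kept. Of 26673 such PPSs at day 2, 7468 (28.0%) overlapped no day 4 PPS of either nuclease and are called lost. Of 22610 at day 4, 4032 (17.8%) overlapped no day 2 PPS and are called gained. Lost sites touched the CDS in 25.6% of cases and gained sites in 35.0%. The 3′ UTR was touched by 11.8% of lost and 15.5% of gained sites, and the 5′ UTR by 5.58% and 3.05%. Introns alone held 51.1% of lost and 42.8% of gained sites. Both sets were shorter than kept sites, with median lengths of 67 and 74 nt against 82 and 92 nt for kept sites of day 2 and day 4. Longer PPSs overlap others more easily, so this order is in part built into the definition of the sets. These shares describe the sets and were not tested.

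The highest-scoring sites differed between days. At day 2, 2 of the top 3 lay in introns of Pfkp, the platelet-type phosphofructokinase of glycolysis, at chr13:6606406-6607524 with a score of 244 and at chr13:6611138-6612055 with 207, both on the minus strand. The other lay in an intron of the unnamed gene AC115970.1, at chr10:96077526-96077897. At day 4 the highest lay in the CDS of Ranbp6, an importin-family gene without introns, at chr19:29810387-29811266 with a score of 293. It was followed by a site over 3′ UTR sequence of Taf1d that also spans the small RNA genes Gm24299 and Gm24455 (chr9:15313636-15314347, score 199.5) and a site over an exon of Uhrf2, a ubiquitin ligase gene (chr19:30085934-30086697, score 182). A score here is the authors' enrichment value, which appears to be summed over the calls merged into a PPS. The 3 highest gained sites were the Add1 site above (chr5:34604642-34604873), a site antisense to the predicted gene Gm30504 (chr8:45154300-45154541, score 64.4) and one in an intron of Csf2rb2, a cytokine receptor subunit (chr15:78302257-78302531, score 62.2). The 3 highest lost sites were in introns of the predicted gene Gm21887 (chrX:170016993-170017249, score 70.8), of Ttc7 (chr17:87297698-87298083, score 64.7), whose mutation in mice gives anemia, and of Cenpo, a centromere protein (chr12:4204279-4204629, score 64.6).

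Gene by gene, protection was measured as exonic coverage, the percentage of a gene's exonic nucleotides that lay inside PPSs. It was followed in 8626 protein-coding genes that had an ssRNase PPS at either day and 500 or more exonic nt. Mean coverage was 3.67% and 4.71% at day 2 and 4.05% and 3.90% at day 4, and the difference of means, -0.213 points, was smaller than the spread between replicates. A gene was called where both day 4 replicates lay on the same side of both day 2 replicates and the means differed by 10 points or more. This called 126 genes higher at day 4 (1.46% of genes tested) and 102 lower (1.18%). Without the size limit, day 4 lay wholly above day 2 in 1613 genes (18.7%) and wholly below in 2165 (25.1%). Without PPSs that held any dsRNase call, 31 genes were called higher, 16 of them among the 126, and 49 lower, 27 of them among the 102. Of 49 called genes chosen for naming, 29 did not reverse in that setting but were no longer called, and others reversed. With 1 transcript per gene, 259 were called higher, 121 of them among the 126, and 188 lower, 88 of them among the 102. The falls also depended on the day 2 replicates. Without day 2 replicate 1, 168 genes were called lower, 90 of them among the 102. Without day 2 replicate 2, 118 were called lower, 67 of them among the 102.

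**Figure D3:**
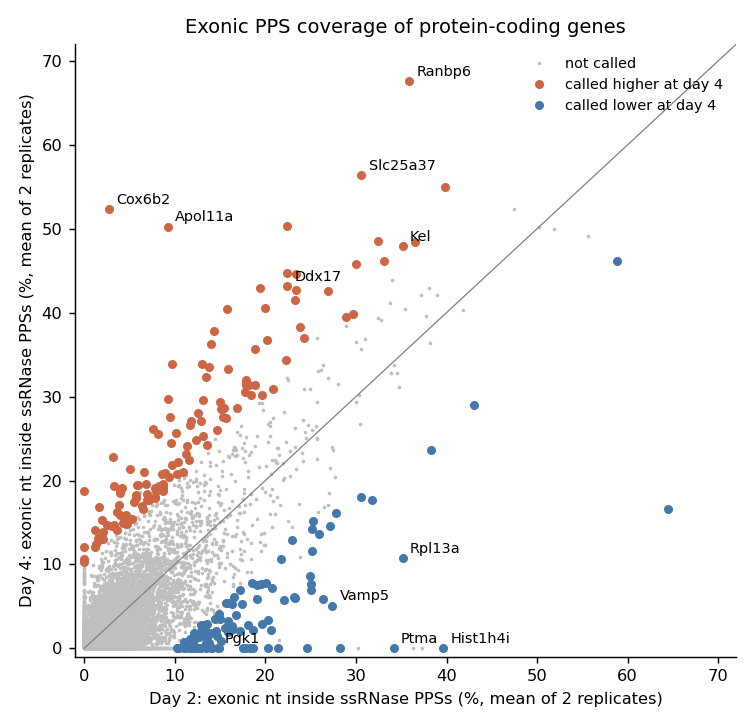
Exonic nucleotides inside ssRNase PPSs (%, mean of 2 replicates) at day 2 (x axis) and day 4 (y axis) for 8626 protein-coding genes; orange points are the 126 genes called higher at day 4, blue points the 102 called lower, grey points the rest, and the line marks equal values. Cox6b2 and Apol11a lie far above the line near the y axis, and Ptma and Hist1h4i lie on the x axis with no day 4 coverage.

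The largest rises and falls are given for called genes with at least 3 exonic PPSs at either day that share no exonic position with another gene on their strand, without predicted genes. Some larger falls, such as that of Rpl13a, which overlaps a snoRNA gene, are left out by this rule. Cox6b2 (chr7:4751792-4753094), a testis-type isoform of a cytochrome c oxidase subunit, had 0% and 5.42% at day 2 and 52.3% and 52.3% at day 4. Its CDS had 0% and 10.4% at day 2 and 23.3% and 23.3% at day 4. Its introns had 0% and 30.8% at day 2 and 73.8% and 73.8% at day 4. Apol11a (chr15:77508271-77518051), of the apolipoprotein L family, had 4.24% and 14.2% at day 2 and 50% and 50.5% at day 4, and its introns rose as well, with 4.83% and 6.15% at day 2 and 37.7% and 35.1% at day 4. Reads of this multigene family can be shared between copies, so that its rise is uncertain.
Ranbp6 (chr19:29808400-29812974), the gene of the highest day 4 score, had 29.4% and 42.3% at day 2 and 68.7% and 66.4% at day 4. Slc25a37 (chr14:69241848-69285112) encodes mitoferrin-1, which brings iron into mitochondria for heme, and had 29.0% and 32.2% at day 2 and 53.8% and 58.9% at day 4. Its 3′ UTR held most of the rise, with 26.5% and 31.0% at day 2 and 54.7% and 64.0% at day 4.
Replicates were far apart from the other day for all 4, but coverage without dsRNase-supported PPSs was lower at day 4 for Ranbp6, by 11.5 points, and for Slc25a37, by 2.57 points.

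Gadd45g, a growth-arrest gene, had 7.16% and 24.5% at day 2 and 47.2% and 33.6% at day 4. Hbq1b, a theta-globin gene with a near-identical copy in Hbq1a, had 19.4% and 0% at day 2 and 48.0% and 19.7% at day 4, so that day 4 replicate 2 barely exceeded day 2 replicate 1. Ddx17, an RNA helicase of splicing and microRNA processing, had 21.7% and 23.1% at day 2 and 44.7% and 41.5% at day 4, with the CDS at 16.01% and 20.9% at day 2 and 53.5% and 63.6% at day 4. Without dsRNase-supported PPSs its coverage was lower at day 4, as given with the helicases.
Wdr13 rose by 22.3 points, Dhrs11, a dehydrogenase gene, by 20.5, Pdrg1 by 19.7, the small GTPase gene Rac3 by 18.7 and Mrm1, a mitochondrial rRNA methyltransferase, by 18.5. Rac3 had no exonic PPS at day 2.

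Of the 12 largest falls by this rule, 4 ended at 0 in both day 4 replicates. Ptma (chr1:86526726-86530712), which encodes the abundant proliferation-linked protein prothymosin alpha, had 41.0% and 27.3% at day 2 and 0% and 0% at day 4. Vamp5, a vesicle SNARE, had 27.4% and 27.4% at day 2 and 4.58% and 5.54% at day 4. Pttg1, the securin that holds sister chromatids together until anaphase, had 20.9% and 15.8% at day 2 and 0% and 0% at day 4, with its 3′ UTR at 40.6% and 33.1% at day 2 and 0% and 0% at day 4.
Incenp, of the chromosomal passenger complex, had 19.9% and 26.6% at day 2 and 6.63% and 5.29% at day 4, and Ankle1, an endonuclease gene of hematopoietic tissue, had 27.2% and 25.5% at day 2 and 7.23% and 4.53% at day 4. Icam4, a red cell adhesion protein, had 22.3% and 16.9% at day 2 and 5.86% and 0% at day 4. Both cell-division genes in this group, Pttg1 and Incenp, thus lay well below their day 2 replicates.
Atpif1, the inhibitor of the mitochondrial ATP synthase, had 21.5% and 19.2% at day 2 and 0% and 6.66% at day 4. Angptl6 fell by 18.4 points, the small GTPase gene Arf6 by 18.0 and the sterol acyltransferase gene Soat2 by 17.4. The remaining 2 were histone genes, Hist1h4i and Hist2h3c2, described with their list.

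**Figure D4:**
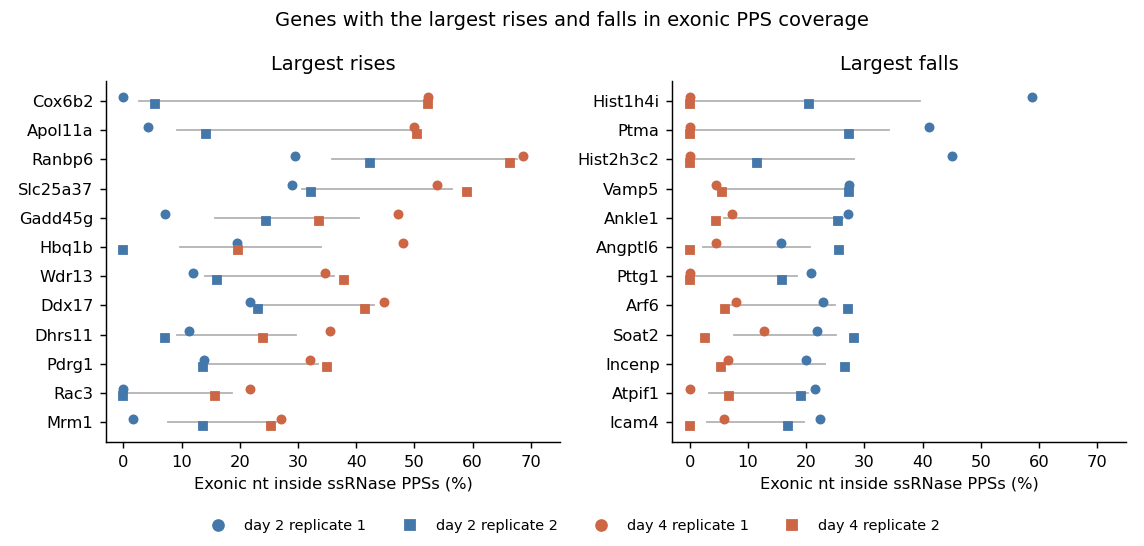
Exonic nucleotides inside ssRNase PPSs (%) for the 12 largest rises (left) and the 12 largest falls (right) of called genes with 3 or more PPSs and no exonic position shared with another gene; circles are replicate 1 and squares replicate 2, blue for day 2 and orange for day 4, and grey lines join the means of 2 replicates. Orange symbols lie to the right of blue ones in every gene on the left, narrowly for Hbq1b, and at 0 for Hist1h4i, Ptma, Hist2h3c2 and Pttg1 on the right.

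Gene lists for erythroid products were read against all 8626 genes, whose median change was -0.386 points. Of 13 heme synthesis genes tested, 2 were called higher and none lower, the median change was 3.12 points. Of all genes, 1.46% were called higher. Of the 13, 7 lay wholly above their day 2 replicates (18.7% of all genes) and 2 wholly below (25.1%). Among those called higher, Alas2, the erythroid enzyme of the first step, had 6.45% and 4.12% at day 2 and 17.1% and 13.8% at day 4. Ppox, a late step, had 32.4% and 35.6% at day 2 and 42.0% and 45.7% at day 4, short of the 10-point limit. Cpox went the other way, with 11.1% and 10.0% at day 2 and 4.74% and 3.98% at day 4. Without dsRNase-supported PPSs the change of Alas2 was -2.06 points. The list median was -0.486 without dsRNase-supported PPSs and -0.334 on the plus strand alone, so its direction depended on these choices.

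Of 25 genes of the red cell membrane and skeleton, 3 were called higher (1.46% of all genes) and 1 lower (1.18%), with a median change of 3.05 points. Of the 25, 15 lay wholly above day 2 (18.7% of all genes) and 5 wholly below (25.1%). Epb41, protein 4.1R that ties spectrin to actin, had 11.4% and 10.5% at day 2 and 20.9% and 21.1% at day 4. Ermap, a blood group membrane protein, had 6.85% and 8.89% at day 2 and 16.4% and 19.7% at day 4. Kel, the Kell blood group endopeptidase, had 28.6% and 41.7% at day 2 and 49.7% and 46.2% at day 4, and its change was -1.55 points without dsRNase-supported PPSs. Named after their values were seen, Ank1, the ankyrin that anchors spectrin, had 10.2% and 13.8% at day 2 and 22.7% and 16.9% at day 4. Gypc, glycophorin C, had 2.83% and 8.58% at day 2 and 14.4% and 15.4% at day 4. Both lay wholly above day 2 without reaching the limit. Icam4 was the gene called lower. Without dsRNase-supported PPSs the median change was -0.482 points.

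Globins gave no common direction: of 10 annotated genes 6 were tested, and Hbq1b alone was called. The adult beta-globin Hbb-bs had 23.6% and 5.08% at day 2 and 8.33% and 0% at day 4. Its near-identical copy Hbb-bt, with which it can share reads, had 23.8% and 6.12% at day 2 and 9.10% and 0% at day 4. Of 15 iron-handling genes only Slc25a37 was called, and 5 lay wholly above (18.7% of all genes) and 5 wholly below day 2 (25.1%). Among the latter was Steap3, a ferrireductase, with 5.98% and 6.04% at day 2 and 1.10% and 0% at day 4. The ferritin light chain gene Ftl1 had 8.21% and 3.96% at day 2 and 0% and 0% at day 4. Of 23 erythroid transcription factors none was called at this limit, 7 lay wholly above (18.7% of all genes) and 2 wholly below (25.1%). Ldb1, a bridge between factor complexes at the globin locus, had 15.0% and 17.8% at day 2 and 24.2% and 23.0% at day 4. Mafg, a partner of NF-E2, had 10.9% and 11.8% at day 2 and 17.1% and 17.9% at day 4. Bcl11a, the repressor of fetal globin, lay below day 2, with 6.35% and 11.1% at day 2 and 2.03% and 0.410% at day 4.
Of 26 terminal maturation and survival genes, 10 lay wholly above day 2 (18.7% of all genes) and 4 wholly below (25.1%). None was called lower, and 2 were called higher (1.46% of all genes). These were Btg2, an antiproliferative partner of deadenylases, at 4.78% and 18.7% at day 2 and 33.7% and 20.5% at day 4, and Ranbp10, a microtubule-binding relative of RanBP9, which had 2.58% and 8.33% at day 2 and 15.999% and 18.8% at day 4. Without dsRNase-supported PPSs the change of Btg2 was -4.48 points. Btg2 was also the 1 called gene of 27 mRNA stability regulators, where 1.46% of all genes were called higher.

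**Figure D5:**
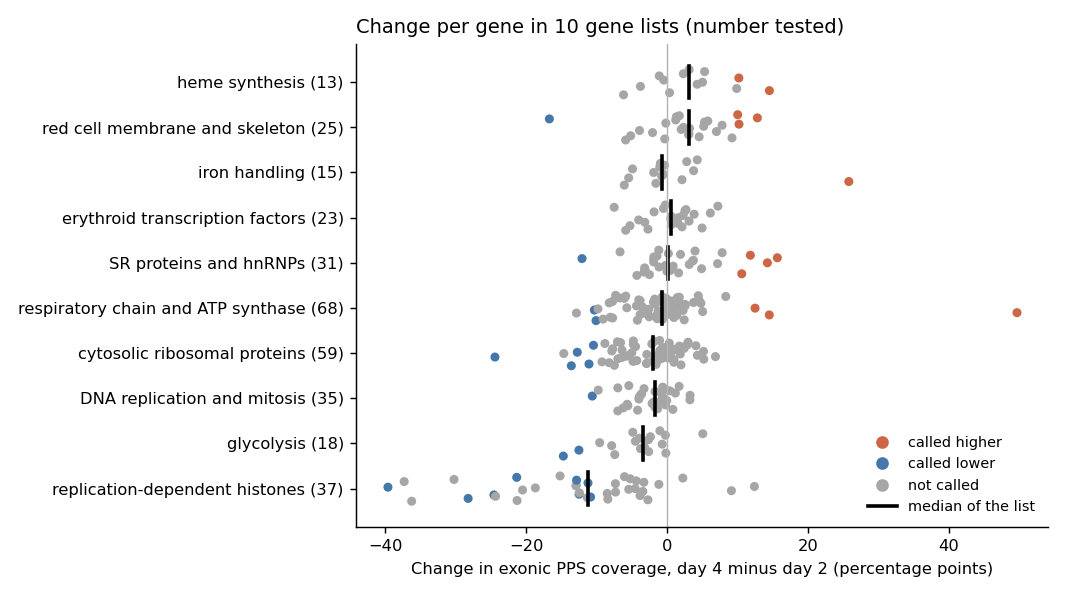
Change in exonic PPS coverage per gene (day 4 minus day 2, percentage points) in 10 gene lists, with the number of genes tested after each name; orange points were called higher at day 4, blue points lower, grey points neither, and black bars are list medians. The histone bar lies at -11.2 points and the glycolysis bar at -3.49, and the heme synthesis and red cell membrane bars lie at 3.12 and 3.05.

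Histone genes and genes of DNA replication and mitosis were taken next. Replication-dependent histones are made in S phase, and their mRNAs end in a stem-loop in place of a poly(A) tail. Of 37 histone genes tested among 67 annotated, 8 were called lower (1.18% of all genes) and none higher, and the median change was -11.2 points. Of the 37, 13 lay wholly below day 2 (25.1% of all genes) and 2 wholly above (18.7%). Hist1h4i had 58.7% and 20.5% at day 2 and 0% and 0% at day 4. Hist2h3c2 had 45.0% and 11.5% at day 2 and 0% and 0% at day 4. Many of the histone genes had coverage in day 2 replicate 1 alone, such as Hist2h2aa2, at 74.6% and 0% at day 2 and 0% and 0% at day 4. List medians were 20.6% and 0% in the day 2 replicates and 0% in both of day 4, so the median change rested largely on day 2 replicate 1. Histone genes are near-identical copies, up to 10 alignments per read were kept, and single members are therefore uncertain.
Of 35 genes of DNA replication and mitosis, 1 was called lower (1.18% of all genes) and none higher, and 18 lay wholly below day 2 against 25.1% of all genes. Cdc20, the activator of the anaphase-promoting complex, had 8.35% and 16.3% at day 2 and 0% and 3.43% at day 4. The spindle checkpoint gene Bub1b had 10.3% and 11.5% at day 2 and 1.26% and 0.982% at day 4. Ccnb1, cyclin B1 of mitotic entry, had 7.42% and 7.64% at day 2 and 1.04% and 0% at day 4. Mcm5, a subunit of the replicative helicase, had 9.27% and 6.84% at day 2 and 2.10% and 0% at day 4. These 3 lay wholly below day 2 with changes under the limit.

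Glycolysis was the next lowest of the lists in median, at -3.49 points. Of 18 genes 2 were called lower (1.18% of all genes), 10 lay wholly below day 2 (25.1%), and 17 had a negative change, as had 5018 of all 8626 genes. Pgk1, an ATP-forming kinase of the pathway, had 20.01% and 9.45% at day 2 and 0% and 0% at day 4. Pklr, the pyruvate kinase of red cells and liver, had 10.1% and 15.0% at day 2 and 0% and 0% at day 4. Gpi1, the phosphoglucose isomerase, had 13.1% and 15.3% at day 2 and 6.48% and 2.71% at day 4. Pgam1, a phosphoglycerate mutase, had 4.39% and 11.4% at day 2 and 0% and 0% at day 4.
The respiratory chain and ATP synthase list gave 3 genes called higher (1.46% of all genes) and 2 lower (1.18%) of 68. Of the 68, 10 lay wholly above day 2 (18.7% of all genes) and 19 wholly below (25.1%). Beside Cox6b2, Atp5s was called higher, at 0.589% and 7.41% at day 2 and 21.04% and 15.9% at day 4. The Rieske protein gene Uqcrfs1 had 12.3% and 12.3% at day 2 and 24.8% and 24.8% at day 4. Cox6a1 and Ndufb6 were called lower.

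Of 59 cytosolic ribosomal protein genes, 5 were called lower (1.18% of all genes) and none higher (1.46%), with a median change of -1.99 points. Rpl13a, which hosts snoRNAs in its introns, had 37.0% and 33.3% at day 2 and 14.0% and 7.38% at day 4 over all its annotated exons. Rpl10a had 22.0% and 28.4% at day 2 and 15.6% and 7.57% at day 4. With 1 transcript per gene, which leaves out transcripts that keep introns, the median change was 0.780 points and that of Rpl10a was 1.69 points, so this list's direction depends on the exon model. Of 52 translation factors 1 was called each way, against 1.46% of all genes called higher and 1.18% lower. Eif1b, a paralog of the start codon factor eIF1, had 0% and 4.18% at day 2 and 15.6% and 12% at day 4, and its change was -0.267 points without dsRNase-supported PPSs. Eif5a, the hypusinated elongation factor, had 16.9% and 11.3% at day 2 and 3.66% and 0% at day 4.

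The 31 SR protein and hnRNP genes had median levels of 11.6% and 14.4% at day 2 and 13.0% and 12.5% at day 4, against 2.14%, 3.21%, 2.07% and 1.95% for all genes. Of the 31, 4 were called higher (1.46% of all genes) and 1 lower (1.18%). The limit of 10 points is absolute, so genes with high coverage can reach it more easily. The median change was 0.175 points, with 16 changes above 0 and 15 below. Of the 31, 10 lay wholly above day 2 (18.7% of all genes) and 6 wholly below (25.1%). Srsf2, an SR protein of exon definition, had 27.6% and 26.2% at day 2 and 40.5% and 44.6% at day 4. Its relative Srsf1 had 11.6% and 14.1% at day 2 and 28.9% and 25.2% at day 4. Hnrnpdl, of the hnRNP D family, had 13.9% and 17.3% at day 2 and 27.0% and 27.8% at day 4, and its change was -2.14 points without dsRNase-supported PPSs. Hnrnpu was called higher as well, and Hnrnpa0, the gene called lower, had 14.9% and 19.9% at day 2 and 10.7% and 0% at day 4. Many SR and hnRNP genes carry conserved exons that mark their own transcripts for decay. The location of the rise differed: in Srsf2 the CDS had 42.4% and 42.4% at day 2 and 9.95% and 24.9% at day 4 while the 3′ UTR had 13.6% and 7.57% at day 2 and 39.7% and 37.3% at day 4. In Srsf1 the CDS had 39.95% and 26.7% at day 2 and 66.8% and 56.4% at day 4.
Of 45 RNA helicases, the paralogs Ddx17 and Ddx5 were called higher (1.46% of all genes) and Ddx43 lower (1.18%). Ddx5 had 28.5% and 29.2% at day 2 and 44.5% and 34.4% at day 4, with its 3′ UTR at 31.7% and 30.9% at day 2 and 62.7% and 49.8% at day 4. Without dsRNase-supported PPSs the changes of Ddx17 and Ddx5 were -8.05 and -10.0 points.

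Of the genes the study took up for pulldown or as controls, Appl2, an endosomal adaptor gene, was called higher, with 4.00% and 7.63% at day 2 and 18.5% and 20.4% at day 4. Dkc1, the pseudouridine synthase of box H/ACA particles, had 11.7% and 8.66% at day 2 and 2.50% and 5.29% at day 4, below day 2 in both replicates by less than the limit. Dido1, a PHD finger gene, had 3.36% and 9.18% at day 2 and 7.70% and 9.51% at day 4, with overlapping replicates. Adar, the adenosine deaminase of double-stranded RNA, had 9.03% and 9.30% at day 2 and 8.64% and 4.55% at day 4. These genes were chosen by the study and give no independent direction.
The remaining lists had few calls, as had all genes, with 1.46% called higher and 1.18% lower. Of 32 proteasome genes, Psma5 was called lower, at 18.2% and 15.0% at day 2 and 8.02% and 4.16% at day 4, and none higher. None was called among 30 E2 ubiquitin-conjugating enzymes, 27 autophagy genes, 17 chaperones or 10 tested progenitor and leukaemia regulators. Median changes of these 5 lists lay between -1.12 and 0.439 points. Of 20 markers of myeloid, megakaryocyte and lymphoid cells 2 were tested, Itga2b and Cebpa, and neither was called.

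Nuclear noncoding RNAs lie outside the call rule, which was for protein-coding genes, and gave the largest single change in level. Malat1, an abundant RNA of nuclear speckles, had 79.2% and 62.8% at day 2 and 3.59% and 2.58% at day 4. Neat1, the scaffold of paraspeckles encoded next to it, had 20.2% and 25.3% at day 2 and 35.5% and 33.2% at day 4. The neighbours thus went opposite ways, with no overlap of replicates in either.
Genes that host snoRNAs were split. Gas5 had 58.3% and 57.5% at day 2 and 58.1% and 57.8% at day 4, with overlapping replicates. Snhg1 had 51.3% and 46.5% at day 2 and 55.0% and 55.0% at day 4. Zfas1, in contrast, had 21.5% and 24.3% at day 2 and 6.04% and 7.72% at day 4. Snhg15 had 23.0% and 42.6% at day 2 and 7.87% and 11.7% at day 4, and Snhg17 followed with 22.1% and 20.5% at day 2 and 8.45% and 8.48% at day 4. The imprinted Kcnq1ot1 had 10.1% and 12.2% at day 2 and 10.5% and 12.3% at day 4. Of the whole list of 15 nuclear noncoding RNAs and snoRNA hosts, 6 lay wholly below day 2 and 2 wholly above. Among the protein-coding genes tested these shares were 25.1% and 18.7%. Neat1, Gas5, Snhg1, Snhg17 and Kcnq1ot1 were named after their values were seen.

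Within introns, 3818 sites were lost and 1725 gained, and the 5 genes on each side with the highest counts are described. Counts were not divided by intron length, which was 1033660 nt in Lrmda and 48114 nt in Anln, so long genes can rank high. Lrmda had the most lost intronic sites, 82, with 15 gained, and its intronic coverage was 3.86% and 5.11% at day 2 and 3.02% and 2.89% at day 4. St6galnac3, a sialyltransferase gene, had 54 lost and none gained, with 1.74% and 2.78% at day 2 and 0.325% and 0.283% at day 4. Bcl11a lost 26 and gained none, with intronic coverage of 4.32% and 6.35% at day 2 and 0.157% and 0.124% at day 4.
Anln, whose lost border site is printed above, lost 24 and gained none, with 7.13% and 8.48% at day 2 and 0.443% and 0.387% at day 4. Gm20388, a readthrough locus that spans other genes, had 28 lost and 27 gained and is not interpretable by itself.
Intronic gains were led, after Gm20388, by Sptb, the beta-spectrin of red cells, with 26 gained and 2 lost and intronic coverage of 6.19% and 7.35% at day 2 and 12.8% and 14.6% at day 4. Cmss1 had 25 gained and 2 lost, Cpeb4, a cytoplasmic polyadenylation factor that is induced in erythroid maturation, had 18 gained and none lost, and Camta1 had 17 gained and 5 lost. Cpeb4 introns had 2.57% and 5.402% at day 2 and 13.5% and 14.9% at day 4. Sptb and Cpeb4 both had intronic coverage above their day 2 replicates while their exonic coverage moved by less than the limit.
Called genes of the heme and maturation lists were also higher in introns. Alas2 introns had 1.61% and 2.73% at day 2 and 8.28% and 7.51% at day 4. In Ranbp10 they had 0.755% and 0.632% at day 2 and 5.05% and 6.89% at day 4.

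The sequence of the sites was richer in A at day 4. Mean A content was 26.2% and 26.9% at day 2 and 27.2% and 27.8% at day 4, and the pooled rise of 0.853 points ran from 0.373 to 1.62 over pairs, small beside a spread over PPSs of 7.76 and 7.45 points (SD, over 99244 and 73127 PPSs). It was seen in sites wholly in the CDS, at 26.4% and 27.1% at day 2 and 27.6% and 28.2% at day 4, wholly in 3′ UTRs, at 25.1% and 26.0% at day 2 and 26.5% and 26.8% at day 4, and wholly in introns, at 26.7% and 27.4% at day 2 and 27.6% and 28.1% at day 4. C was lower in each of the 3 classes, with pooled changes of -0.471 points in the CDS, -0.397 in 3′ UTRs and -0.442 in introns. Gained sites averaged 28.1% A and lost sites 25.5%, with kept sites between them at 26.3% and 27.0%. Among PPSs formed from a single call the pooled rise in A was much smaller, as given at the end.

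Short words known from RNA-binding proteins were counted on the sense strand, with overlapping matches, in PPSs wholly inside a class. AAAAAA, a stretch that poly(A)-binding proteins can hold, occurred per kb of CDS PPS at 0.201 and 0.278 at day 2 and 0.3598 and 0.423 at day 4. In 3′ UTR PPSs it occurred at 0.285 and 0.410 at day 2 and 0.514 and 0.746 at day 4 per kb, and in intronic PPSs at 0.199 and 0.261 at day 2 and 0.301 and 0.3605 at day 4. The word AATAAA, which is the main polyadenylation signal and overlaps AAAAAA where A runs follow, went the same way, from 0.355 and 0.443 to 0.537 and 0.555 per kb in 3′ UTRs and, pooled, from 0.128 to 0.190 in the CDS. GAAGAA, a purine-rich word of exonic splicing enhancers bound by SR proteins, rose in all 3 classes by smaller ratios, 1.11, 1.10 and 1.13. Among single-call PPSs, AAAAAA in the CDS gave a ratio of 0.937 in place of 1.52. Without dsRNase-supported PPSs this ratio was also much smaller.

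Other words went down. CCTCCC, a C-rich word of the kind bound by poly(C)-binding proteins, occurred per kb of CDS PPS at 0.205 and 0.197 at day 2 and 0.142 and 0.126 at day 4 and in 3′ UTRs at 0.309 and 0.279 at day 2 and 0.183 and 0.182 at day 4, without overlap; in introns the replicates overlapped. GTGTG, a GU-rich word of CELF proteins, had 1.74 and 1.71 at day 2 and 1.53 and 1.52 at day 4 per kb of CDS PPS and 3.42 and 3.22 at day 2 and 3.03 and 2.89 at day 4 in 3′ UTRs, and again overlapped in introns. TGTANAT, the Pumilio word, was lower in 3′ UTRs, at 0.926 and 0.924 at day 2 and 0.900 and 0.795 at day 4, and higher in the CDS, at 0.127 and 0.142 at day 2 and 0.152 and 0.183 at day 4. For TATTTA (AU-rich elements) and TTTTTT, replicates of the days overlapped in the CDS and 3′ UTR, and for GGACT (the core of m6A sites) in all 3 classes. Replicates also overlapped for CTCTCT, a word of polypyrimidine tract-binding protein, in 3′ UTRs and introns. In the CDS CTCTCT was lower, at 0.170 and 0.157 at day 2 and 0.136 and 0.138 at day 4. TATTTA was higher in introns, at 0.154 and 0.199 at day 2 and 0.206 and 0.211 at day 4. A match is a run of letters and does not show which protein was present.
As counts are small in the site sets (21 and 27 matches of AAAAAA and 22 and 8 of CCTCCC in 1298 lost and 966 gained sites), their rates are only described. Sites wholly in the CDS held AAAAAA at 0.364 per kb when gained and 0.233 when lost, and CCTCCC at 0.108 and 0.244.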

How the data were processed

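Per the labels and the methods, PIP-seq libraries of MEL cells were digested with RNaseONE (ssRNase) or RNaseV1 (dsRNase), trimmed with cutadapt 1.2.1 and aligned to mm10 with TopHat2 2.0.10, keeping up to 10 hits per read. The authors called PPSs per replicate and nuclease by footprinting against structure-only reads at an FDR of 5%, merged overlapping calls per day, and deposited lists whose value column is an enrichment score per PPS, at least 5.4. Read depth cannot be had from these lists, and replicate values rest on call names. PPSs of 20 to 40 nt were left out. PPSs were intersected with GENCODE M21 on GRCm38 (mm10) by strand, using Python 3.11.15, numpy 2.4.6, pandas 2.3.3 and pysam 0.24.0. Sequences are from that genome, and none was taken from chromosome 18. The call rule for genes (no overlap of replicates and a difference of 10 points) was run on simulated lists. Both simulated days were made from the day 2 PPSs, and sites were added to chosen genes at 1 day, alike in both replicates. Other genes could not differ between days there. The run therefore checks the code only and cannot give a rate of false calls. Named genes were, per list, the 4 with the largest change, the 12 largest rises and 12 largest falls of called genes with 3 or more PPSs, without predicted-gene and RIKEN symbols and genes sharing exonic positions with another gene on their strand, and the genes of the top 3 sites and of the 5 highest intronic counts; others are marked. The members and lists were chosen with earlier results of these data known. Alternatives changed 1 choice at a time: length limit, support by both replicates, dsRNase-supported PPSs, single calls, equal numbers of top scores, a score of 10 or more, exon model, thresholds, each replicate left out and each strand. The strand and 60 to 80 nt alternatives were chosen after seeing the data. Deviations of same-numbered replicates from their day means had a correlation of 0.0363 over genes, so numbers were not taken as pairs. A few genes of these lists are not reported here.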

Additional observations from a re-analysis of the deposited data

Results flagged for a closer look

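Class shares of PPSs moved in opposite directions with the nucleases of the same cultures. From day 2 to day 4 the change in the CDS share was 5.86 points for ssRNase PPSs, against -12.5 for dsRNase PPSs. For introns the ssRNase change was -3.26 points, while the dsRNase change was 9.23. In each case every day 4 replicate lay on 1 side of every day 2 replicate, and the sides differed between nucleases. PPSs with calls of both nucleases count in both sets, and the difference between nucleases was not tested.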

How the results depend on the processing

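Without dsRNase-supported PPSs, the ratio of PPS numbers was 0.551, the CDS change 8.72 points, the 3′ UTR change 1.58, the stop codon change (100 to 200 nt after it) -1.20, overlaps of day 2 with day 4 and of day 4 with day 2 21.04% and 37.8%, genes called higher and lower 31 and 49, list medians -0.486 (heme), -0.482 (red cell membrane), -1.46 (ribosomal proteins), -2.24 (glycolysis) and -0.989 (DNA replication), and CDS ratios 1.06 (AAAAAA) and 0.625 (CCTCCC). Genes turned to -2.06 (Alas2), -4.48 (Btg2), -8.05 (Ddx17), -10.0 (Ddx5), -0.267 (Eif1b), -2.14 (Hnrnpdl), -1.55 (Kel), -11.5 (Ranbp6) and -2.57 (Slc25a37). Among single calls the values were, in the same order, 0.526, 3′ UTR 1.36, start codon -2.19, stop codon -0.972, 11.5% and 21.7%, 2 genes higher and 0 lower, lists 0.277, -0.263, -0.961, -1.19 and -0.715, A content 0.166, AAAAAA 0.937 and CCTCCC 0.595. With support by both replicates, overlaps were 32.2% and 36.9%, the start codon change -2.53, heme 2.08, ribosomal proteins -5.09, glycolysis -1.87 and CCTCCC 0.607. Equal numbers of top scores gave 1.00, 3′ UTR 1.79, intron -1.62, overlaps 45.8% and 44.9%, start codon -2.20, heme 4.51, ribosomal proteins -1.20 and CCTCCC 0.756. A score of 10 or more gave 0.913, CDS 2.82, 5′ UTR -1.37, intron -1.20, day 4 overlap 43.2%, ribosomal proteins -1.14 and DNA replication -2.33. Keeping 20 to 40 nt gave 3′ UTR 1.54, day 4 overlap 57.6%, ribosomal proteins -2.45 and DNA replication -3.04. Midpoint classes gave 3′ UTR 0.959 and intron -5.53, overlap with any PPS 52.9% and 66.9%, and CCTCCC against flanks 0.641. The plus strand alone gave 52 higher, 54 lower, heme -0.334, red cell membrane 1.31, ribosomal proteins -2.84, DNA replication -3.44 and CCTCCC 0.634; the minus strand gave 74, 48, heme 4.26 and CCTCCC 0.766. With 1 transcript per gene, 259 were higher and 188 lower, ribosomal proteins were at 0.780 and Rpl10a at 1.69. Thresholds of 5 and 20 points gave 478 and 16 higher, 473 and 10 lower. Taking replicate numbers as a block gave 75 higher, all among the 126, and 50 lower, 48 of them among the 102. The cause was not tested. The correlation behind this pairing was near 0.
Leaving out each replicate in turn sets 2 replicates against 1, and the ranges were 0.480 to 1.41 for the ratio of PPS numbers, -1.17 to 0.00873 points for the 5′ UTR, 1.82 to 2.60 for the 3′ UTR, 28.1% to 46.6% and 33.0% to 55.8% for the overlaps, -6.75 to 0.482 before the start codon, -1.74 to 3.22 after the stop codon, 105 to 168 genes called lower, 2.74 to 4.14 for heme, -2.85 to -1.82 for ribosomal proteins, -3.87 to -2.30 for glycolysis, -2.63 to -1.64 for DNA replication, 2.67 to 6.68 for 5′ splice sites, 1.37 to 1.90 for AAAAAA and 0.635 to 0.712 for CCTCCC. Of 378 alternatives of 27 summary values, 234 moved by less than the spread between replicates or, for counts, by less than 1.5 times, and 137 moved by more. Reversals of direction, with those of named called genes included, numbered 18. Each day had 2 replicates, the depth of each single library is unknown, and merged coordinates tie replicates to each other.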
